A study of Mus musculus with 88 samples.

Results

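The genes described here are 9 genes named for disease-associated microglia, the state that brain-resident macrophages take up around amyloid plaques and in other degenerating tissue. They are Axl, Spp1, Lpl, Cd9, Cd63, Plek, Anxa3, Cotl1 and Slco2b1. They were chosen by gene symbol, with earlier results of these data known, and all 9 were found among the 14451 genes of the expression table. Their RNA was measured by sequencing in the frontal cortex of 88 mice of both sexes at 6.5 months of age, with 1 library a mouse. Every mouse carried human APOE3 or human APOE4 in place of mouse Apoe on a C57BL/6 background, and no group had mouse Apoe or lacked APOE. The groups were APP/E4/Trem2ko (n = 16), APP/E4 (n = 14), APP/E3/Trem2ko (n = 14), APP/E3 (n = 14), E4/Trem2ko (n = 8), E4 (n = 6), E3/Trem2ko (n = 8) and E3 (n = 8). APP marks the APP/PS1dE9 transgenes, mutant human APP and presenilin 1 lacking exon 9, which lead to plaques, and E3 and E4 mice without them form no plaques of this kind. Trem2ko marks deletion of Trem2 in the whole animal from conception, so loss of the receptor was neither limited to microglia nor timed.

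TREM2 is a lipid-sensing receptor of the microglial surface that signals through the adaptor TYROBP. In mouse plaque models the change to the disease-associated state runs in stages. Homeostatic genes such as P2ry12, Tmem119 and Cx3cr1 go down first, and a later stage with lipid-handling, lysosomal and adhesion genes depends on TREM2. The 9 genes cover several of these roles. Axl encodes a receptor tyrosine kinase that binds GAS6 and takes part in the clearance of dying cells. Spp1 encodes osteopontin, a secreted ligand of integrins and CD44, and Lpl encodes lipoprotein lipase, which releases fatty acids from triglycerides. Cd9 and Cd63 encode tetraspanins of the cell surface and of late endosomes. Plek encodes pleckstrin, a protein kinase C substrate of platelets and white blood cells, Anxa3 encodes a calcium-dependent membrane-binding annexin, and Cotl1 encodes an F-actin-binding protein. Slco2b1 encodes an organic anion transporter that microglia also express at rest. In GENCODE M21 (GRCm38) all 9 are protein-coding. Plek lies at chr11:16971206-17052381 (minus strand), Anxa3 at chr5:96793339-96845966 (plus), Spp1 at chr5:104435118-104441050 (plus), Cd9 at chr6:125460266-125494791 (minus) and Axl at chr7:25757273-25788705 (minus). Slco2b1 lies at chr7:99657804-99711340 (minus), Lpl at chr8:68880491-68907448 (plus), Cotl1 at chr8:119809222-119840544 (minus) and Cd63 at chr10:128900989-128912822 (plus). Values cover whole genes, with exons not separated.

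Library sizes ran from 41.3 to 95.5 M reads, with a median of 49.8 M. Values are in CPM, which relates each gene's reads to library size, so 1 read was worth 0.0105 to 0.0242 CPM. Trem2 itself lay between 1.12 and 4.65 CPM in the 46 Trem2ko mice and between 7.18 and 19.8 CPM in the 42 mice with wild-type Trem2, without overlap. Microglial RNA was present in every library, with P2ry12 at no less than 17 CPM and Tmem119 at no less than 18.5 CPM. Some libraries stood apart in tissue markers. Keratin reads (Krt13, Krt4 and Krt6a together at 1 CPM or more) were found in 31 of 44 APOE4 libraries and in 0 of 44 APOE3 libraries, so they follow the isoform. In addition, 9 libraries had Ttr at 100 CPM or more, 4 had Alb at 50 CPM or more, and the striatal marker Drd2 had a median of 19.6 CPM in E4 mice against 0.740 to 2.19 CPM in the other groups. The highest library of the E4, E3 and all APP groups had summed striatal neuron markers of 2264 to 2780 CPM. In E4/Trem2ko and E3/Trem2ko mice the highest sums were 249 and 358 CPM, so striatal content differed with Trem2 in mice without the transgenes. The part of these libraries in each result was not tested, but the counts of the 9 genes are given without the keratin libraries where that changes them.

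All 9 genes were detected in every mouse, the least covered value being 120 reads (Spp1). Per kilobase of the longest annotated transcript, the mean level over the 88 mice was highest for Cotl1 (36.7 ± 5.82 CPM per kb, SD), followed by Cd9 (20.3 ± 5.03 CPM per kb), Axl (12 ± 1.55 CPM per kb) and Cd63 (7.92 ± 1.36 CPM per kb). The remaining 5 genes lay close together, each within 1 SD of its neighbours in this order. These were Slco2b1 (5.25 ± 0.827 CPM per kb), Spp1 (5.08 ± 2.62 CPM per kb), Lpl (4.89 ± 1.84 CPM per kb), Anxa3 (4.32 ± 1.28 CPM per kb) and Plek (3.96 ± 0.932 CPM per kb). The genes differed more in how much they varied from mouse to mouse. Spp1 ran from 2.28 to 21.2 CPM, a 9.29-fold range with a coefficient of variation of 51.6%, and Lpl from 7.47 to 50.3 CPM with 37.6%. Axl was the steadiest, from 39.6 to 70.3 CPM with 12.9%.

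**Figure D1:**
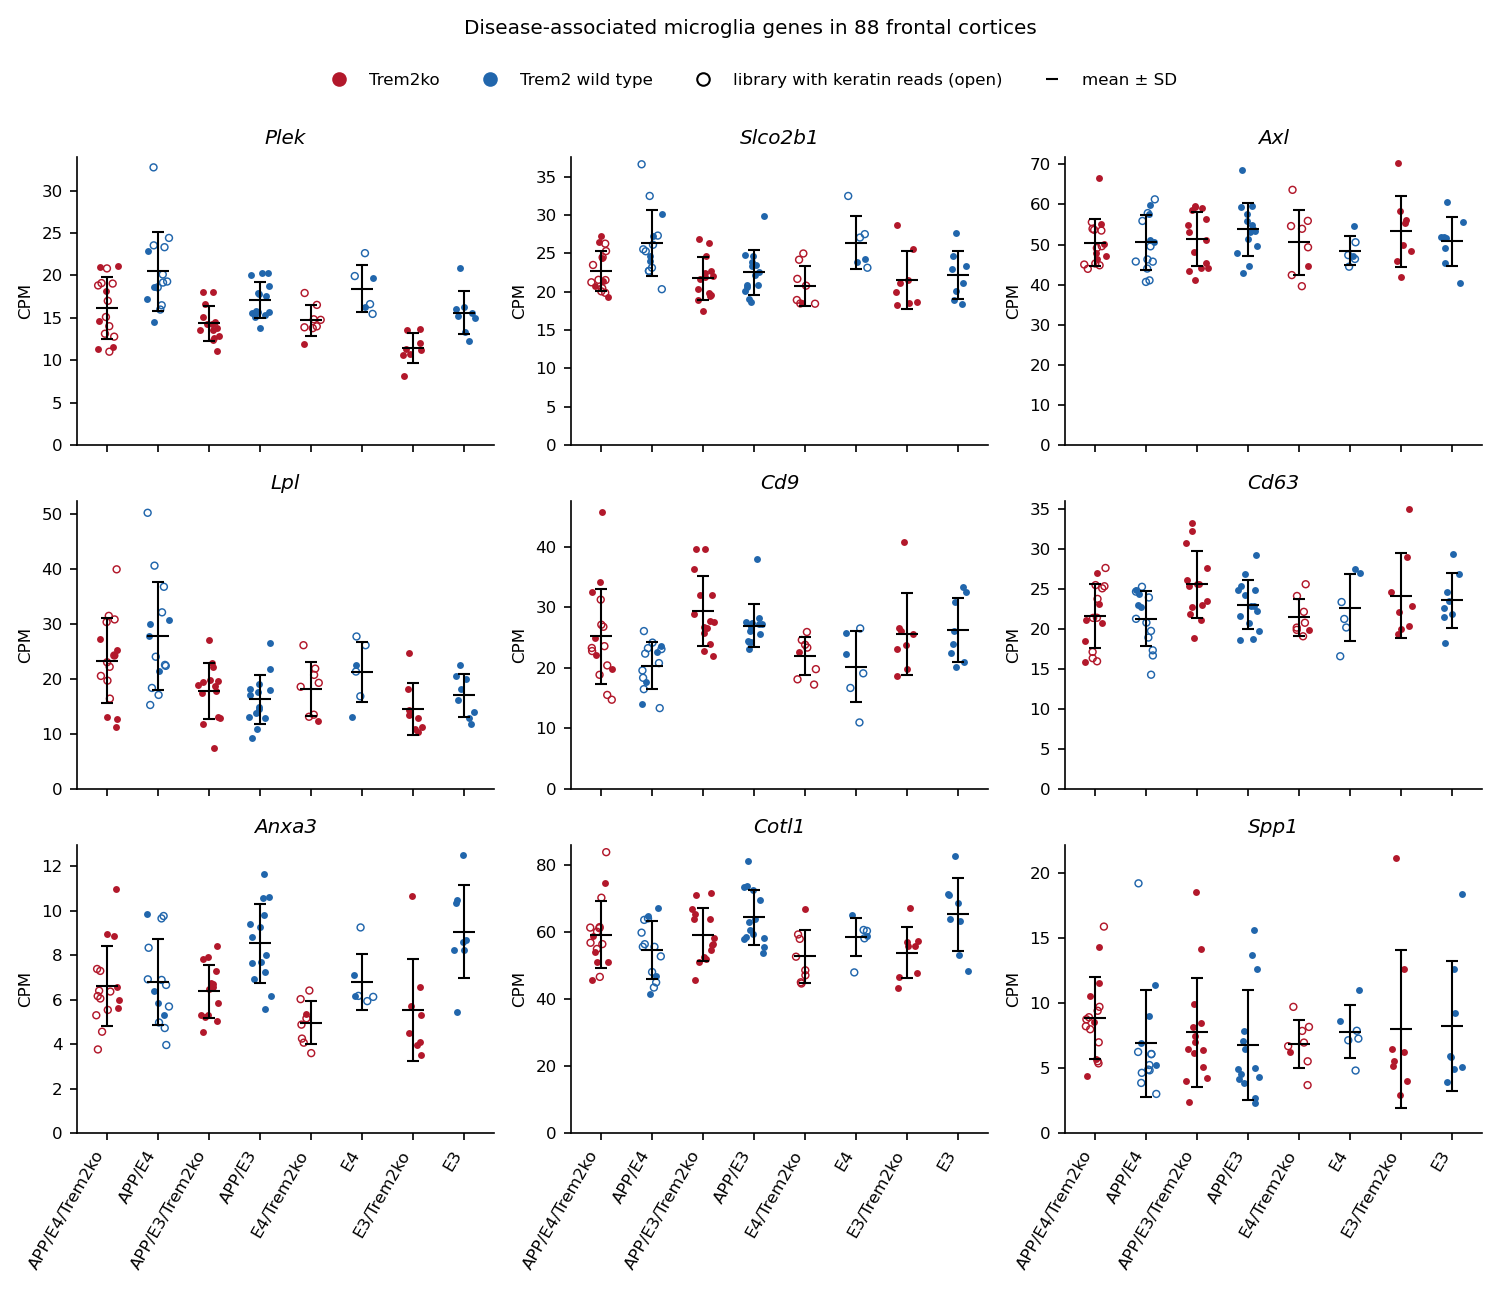
CPM of the 9 genes in each mouse, by genotype, with red points for Trem2ko and blue points for wild-type Trem2, open where the library held keratin reads, and bars for the mean ± SD. Plek sits lower in each Trem2ko group than in its neighbour to the right (means of 16.2 against 20.5, 14.3 against 17.1, 14.7 against 18.4 and 11.4 against 15.6 CPM), while Axl stays between 48.4 and 53.7 CPM in all group means.

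The first question was whether loss of Trem2 lowers these genes. Averaged over the 4 backgrounds, 3 of the 9 genes fell in Trem2ko mice and none rose (limma on log2(CPM + 0.5), Benjamini-Hochberg adjusted p under 0.05). They were Plek, Anxa3 and Slco2b1. Over all 14086 genes tested, 5.79% were called in this comparison, 2.91% lower and 2.88% higher. The median log2 fold change of the 9 genes was -0.11, beside 0.01 for all genes tested.

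Plek had 8.18 CPM at the lowest, 13.9 at the median and 21.1 at the highest in the 46 Trem2ko mice, against 12.3, 17.4 and 32.7 CPM in the 42 Trem2 wild-type mice. The groups overlapped widely, but the whole distribution was shifted down. Its log2 fold change was -0.33 ± 0.05 (SE; adjusted p = 2.42e-05), a level 20.4% lower, and it ranked 19 among the genes tested by p-value. The gene was called in each of the 16 alternative analyses of this comparison (log2 fold change -0.38 to -0.27, adjusted p 4.03e-07 to 0.0386) and without any single mouse. The difference was negative in each background, although the test was passed in only 2 of them.

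In E3 mice, Plek lay between 8.18 and 13.6 CPM (median 11.3) in E3/Trem2ko and between 12.3 and 20.9 CPM (median 15.4) in E3 mice, with a log2 fold change of -0.43 ± 0.12 (adjusted p = 0.0334). In APP/E4 mice it lay between 11 and 21.1 CPM (median 16) in APP/E4/Trem2ko and between 14.5 and 32.7 CPM (median 19.2) in APP/E4 mice (-0.34 ± 0.09, adjusted p = 0.00767). APP/E3/Trem2ko against APP/E3 gave -0.25 ± 0.09 (adjusted p = 0.398) and E4/Trem2ko against E4 gave -0.30 ± 0.13 (adjusted p = 0.742), both uncalled. Their 95% intervals were -0.43 to -0.07 and -0.56 to -0.04. The E3 call was lost when any 1 of E3 replicates 1, 2, 3, 4 and 5 or E3/Trem2ko replicates 2, 3, 4 and 5 was left out (log2 fold change -0.44 to -0.37, highest adjusted p = 0.0813). By limma it was also lost with a covariate for striatal markers (-0.35, adjusted p = 0.087) or for oligodendrocyte markers (-0.44, adjusted p = 0.103). Without the keratin libraries, which leaves 6 APP/E4/Trem2ko and 4 APP/E4 mice, the APP/E4 difference was -0.17 (adjusted p = 0.468).

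Anxa3 had the largest log2 difference of these 3 genes. It had 3.51 CPM at the lowest, 5.92 at the median and 11 at the highest in Trem2ko mice, against 3.96, 7.66 and 12.5 CPM in Trem2 wild-type mice. The log2 fold change was -0.38 ± 0.07 (adjusted p = 0.000416), a level 23.2% lower. Among single backgrounds only E3 passed the test, where it lay between 3.51 and 10.7 CPM (median 4.91) in E3/Trem2ko and between 5.45 and 12.5 CPM (median 8.63) in E3 mice. The groups overlapped, and E3/Trem2ko replicate 4 at 10.7 CPM stood above the next highest mouse of its group at 6.58 CPM. That log2 fold change was -0.70 ± 0.16 (adjusted p = 0.0165), with an adjusted p of 0.0596 when E3/Trem2ko replicate 3 was left out and of 0.00258 without E3/Trem2ko replicate 4. The APP/E3 and E4 pairs gave -0.39 ± 0.12 and -0.40 ± 0.18, uncalled with adjusted p of 0.208 and 0.742. In APP/E4 mice the difference was -0.03 ± 0.12, with a 95% interval of -0.26 to 0.21.

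Slco2b1 moved less. It had 17.5 CPM at the lowest, 21.4 at the median and 28.6 at the highest in Trem2ko mice, against 18.4, 23.7 and 36.6 CPM in Trem2 wild-type mice (-0.16 ± 0.04, adjusted p = 0.0159). APP/E4/Trem2ko mice averaged 22.7 ± 2.63 CPM and APP/E4 mice 26.3 ± 4.32 CPM (SD; -0.20 ± 0.07, adjusted p = 0.0376), and E4/Trem2ko mice averaged 20.7 ± 2.65 CPM and E4 mice 26.4 ± 3.47 CPM (-0.33 ± 0.10, adjusted p = 0.439). In APOE3 mice the log2 fold changes were -0.05 with plaques and -0.05 without, with 95% intervals of -0.19 to 0.09 and -0.23 to 0.14. The test of whether the Trem2 effect differed between isoforms was not passed, with adjusted p of 0.477 in APP mice and 0.715 in mice without the transgenes. The APP/E4 call was lost without any 1 of APP/E4 replicates 1, 3, 6, 7 and 13 or APP/E4/Trem2ko replicates 4, 5, 6 and 15 (log2 fold change -0.21 to -0.16, highest adjusted p = 0.0857).

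**Figure D2:**
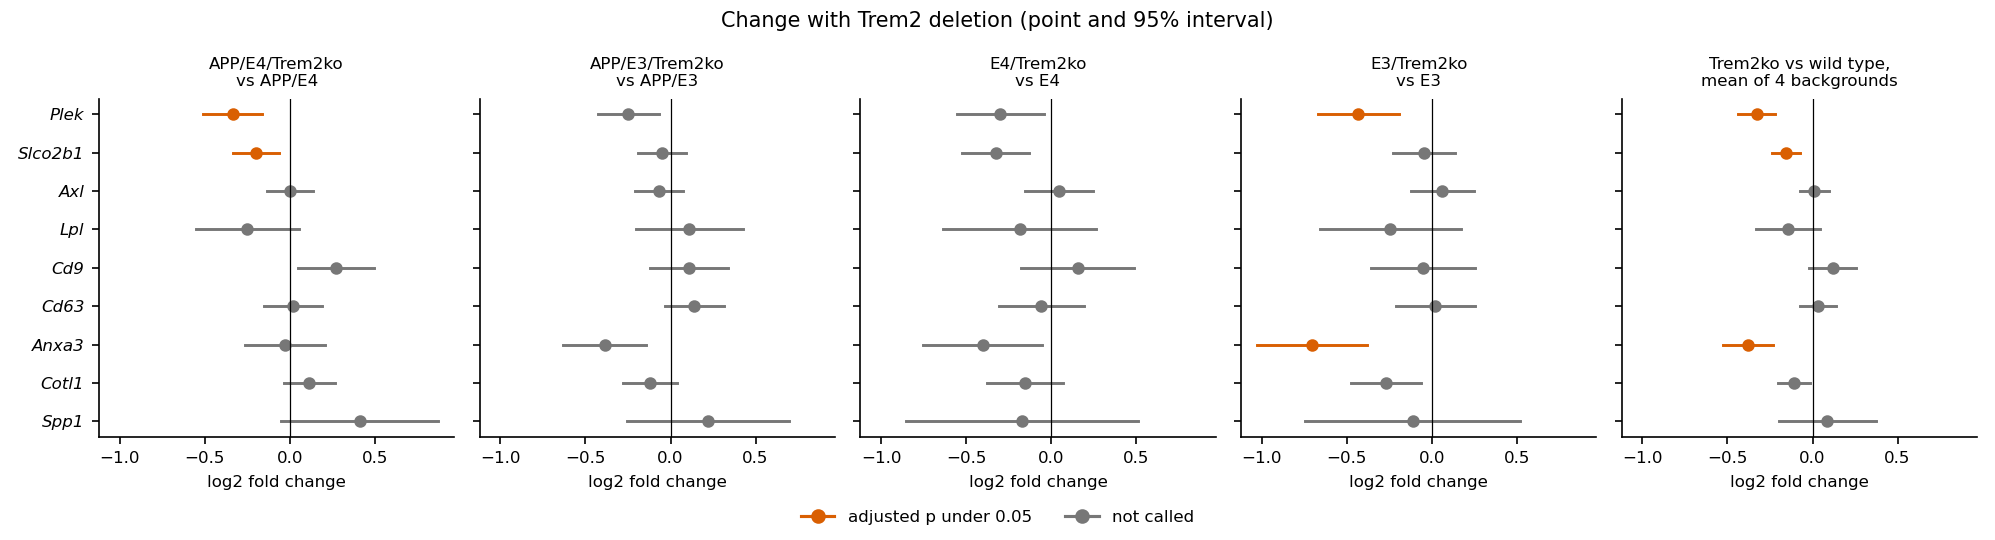
Log2 fold change of the 9 genes with Trem2 deletion (points) and 95% intervals (lines), for the 4 backgrounds and their mean, orange where the adjusted p was under 0.05. Plek lies left of 0 in all 5 panels, and Axl lies within 0.07 of 0 in all 5.

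The other 6 genes did not pass the test in the pooled Trem2 comparison or in any background. Axl was at 0.01 ± 0.04 on the log2 scale, with a 95% interval of -0.07 to 0.09, so a change of over 1.07-fold lies outside its interval. Cd63 was at 0.03 (interval -0.07 to 0.14) and Cd9 at 0.12 (-0.02 to 0.26). Cotl1 was at -0.11 (-0.20 to -0.01, adjusted p = 0.156) and Lpl at -0.14 (-0.33 to 0.04). For Spp1 the interval ran from -0.20 to 0.37, or from 0.871-fold to 1.29-fold. In APP mice, where plaques are present, Spp1 averaged 8.87 ± 3.15 CPM in APP/E4/Trem2ko and 6.91 ± 4.13 CPM in APP/E4 mice (adjusted p = 0.238), and 7.75 ± 4.23 CPM in APP/E3/Trem2ko and 6.80 ± 4.22 CPM in APP/E3 mice (adjusted p = 1). Lpl averaged 23.4 ± 7.74 CPM in APP/E4/Trem2ko and 27.9 ± 9.81 CPM in APP/E4 mice (adjusted p = 0.278).

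By background, 2 genes were called lower in APP/E4/Trem2ko against APP/E4 (Plek and Slco2b1, beside 2.53% of all genes called lower, 11.3% higher and 13.8% in all) and 2 in E3/Trem2ko against E3 (Plek and Anxa3, beside 1.65% lower, 1.26% higher and 2.92% in all). None was called in APP/E3/Trem2ko against APP/E3 or in E4/Trem2ko against E4, the first with 0.319% of all genes called (0.206% higher, 0.114% lower) and the second with 0.0994% (0.071% higher, 0.0284% lower). In those, limma, edgeR and DESeq2 each called 0 of the 9, and 2 and 3 of the 9 had an unadjusted p under 0.05 with limma. When the keratin libraries were left out of the pooled comparison, Plek remained called and the other 2 did not, with log2 fold changes of -0.32 for Anxa3 (adjusted p = 0.312) and -0.17 for Slco2b1 (adjusted p = 0.347). That analysis had 57 mice in place of 88, with 1 E4/Trem2ko mouse set against 2 E4 mice at the same weight as the other backgrounds, and 0.234% of all genes were called in it. With a covariate for striatal markers, Slco2b1 was at -0.11 (adjusted p = 0.191).

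Other microglial genes were measured beside them. Of 18 homeostatic microglial genes, 11 fell and none rose in Trem2ko mice over the 4 backgrounds, with a median log2 fold change of -0.21. P2ry13, a purine receptor (-0.35), Cx3cr1, the fractalkine receptor (-0.27), and Csf1r, the receptor of the microglial survival factor CSF1 (-0.24), were among them. Without the keratin libraries none of the 18 was called by limma, with a median of -0.17 and 7 at an unadjusted p under 0.05, and with the striatal covariate 5 were called. In the full data edgeR and DESeq2 called 12 each. In bulk cortex fewer microglia and less RNA per cell cannot be told apart. Of 16 other genes of the later disease-associated stage that were tested, 3 fell, namely Trem2 itself (-2.31), Ccl6, a chemokine (-0.41), and Cd68, a lysosomal glycoprotein (-0.39), and 1 of the 16 was called lower without the keratin libraries. Trem2, the deleted gene, is counted among the 16, so its fall says nothing about the other genes of this stage. The 8 other genes of the early stage had a median of -0.04, with 0 called by limma, 1 each by edgeR and DESeq2 and 2 at an unadjusted p under 0.05. A further 10 genes of the later stage were not tested, 1 of them (Cd52, mean 0.846 CPM) for its low level. Itgax, Clec7a and Cst7 were among those not found by symbol in the expression table used here. The 16 tested genes therefore do not cover the later stage in full. Of the 8 striatal neuron markers, 3 also fell (median log2 fold change -0.81), and their part in the Trem2 results was not tested beyond the covariate above. Of 9 perivascular macrophage markers, 4 were tested, with 0 called by limma, edgeR or DESeq2 and 1 at an unadjusted p under 0.05 with each.

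Promoter windows from RefSeq (GRCm38.p6), running 250 bases before to 50 bases after a transcription start, were looked up for the 9 genes. Windows were found for 6 of the 9 genes, and not for Lpl, Anxa3 and Cotl1. Those of Plek and Slco2b1 are shown because both genes fell with Trem2 deletion, and that of Spp1 because, beside Slco2b1, it is the other of the 6 with a match to a motif searched. The windows of Axl, Cd9 and Cd63 held neither motif, nor did the other starts listed for Slco2b1 and Spp1. The window is that of the most upstream start listed for each gene, given 5′ to 3′ on the gene's strand. Plek lies at chr11:17008669-17008968 on the minus strand, inside the interval annotated for the gene, Slco2b1 at chr7:99711291-99711590 on the minus strand, and Spp1 at chr5:104434861-104435160 on the plus strand. Capitals mark matches on either strand to GAGGAAGT, a sequence bound by the microglial factor PU.1, or to TGANTCA, the AP-1 element.
Plek: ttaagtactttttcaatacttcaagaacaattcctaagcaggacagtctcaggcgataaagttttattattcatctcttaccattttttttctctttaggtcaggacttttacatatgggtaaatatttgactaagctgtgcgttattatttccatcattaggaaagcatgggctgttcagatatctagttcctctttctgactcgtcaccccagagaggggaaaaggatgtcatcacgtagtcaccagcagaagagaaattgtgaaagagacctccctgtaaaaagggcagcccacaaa
Slco2b1: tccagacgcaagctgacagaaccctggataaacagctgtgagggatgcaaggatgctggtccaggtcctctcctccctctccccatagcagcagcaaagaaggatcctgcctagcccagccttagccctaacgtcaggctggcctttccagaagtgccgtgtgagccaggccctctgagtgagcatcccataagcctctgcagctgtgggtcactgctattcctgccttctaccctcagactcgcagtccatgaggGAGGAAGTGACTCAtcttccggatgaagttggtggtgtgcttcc
Spp1: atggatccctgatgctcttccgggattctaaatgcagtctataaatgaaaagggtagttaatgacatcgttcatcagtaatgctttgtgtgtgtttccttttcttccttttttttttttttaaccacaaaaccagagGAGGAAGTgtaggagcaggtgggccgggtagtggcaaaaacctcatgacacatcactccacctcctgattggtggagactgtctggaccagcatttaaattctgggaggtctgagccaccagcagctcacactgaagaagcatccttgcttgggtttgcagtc
Slco2b1 held GAGGAAGT at bases 7 to 14 after the start, counting the start as base 1, and TGACTCA at bases 14 to 20, so the matches share 1 base. Spp1 held GAGGAAGT from base -113 to base -106. Plek held neither. Of 32851 such windows, 3.20% contained GAGGAAGT and 7.81% contained TGANTCA. A match is a description of letters, not of a bound site.

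The second question was how APOE4 mice differed from APOE3 mice. Over the 4 backgrounds, Lpl, Plek and Slco2b1 were higher and Cd9, Anxa3 and Cd63 were lower in APOE4 mice. This count of 6 stands beside a large background, since 40.4% of all genes tested were called, 12.6% higher and 27.8% lower, so the count is no result about these genes. With TMM scaling, which corrects for differences in library composition, the split over all genes was 2750 higher and 2952 lower, in place of 1774 higher and 3911 lower. The isoform cannot be told apart from the keratin reads over all mice. Without the keratin libraries limma called none of the 9 genes in the pooled comparison, with 0 at an unadjusted p under 0.05 and 3.29% of all genes called. With a keratin covariate, an analysis added after seeing the data, it called none, with 2 at an unadjusted p under 0.05 and 13.2% of all genes called. In the full data edgeR and DESeq2 called 4 of the 9 each.

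Lpl differed most. In APP/E4 mice it had 15.3 CPM at the lowest, 26.0 at the median and 50.3 at the highest, against 9.26, 16.1 and 26.7 CPM in APP/E3 mice. The groups overlapped, with the APP/E4 median close to the highest APP/E3 mouse. The log2 fold change was 0.73 ± 0.16 (adjusted p = 0.000177), or 1.65-fold (95% interval 1.33 to 2.05). The call was kept in all 17 alternatives, including without the keratin libraries (0.77, adjusted p = 0.0167, from 4 APP/E4 mice) and with the keratin covariate (0.56, adjusted p = 0.0215). The difference was smaller and uncalled in the other pairs, at 0.36 ± 0.15 for APP/E4/Trem2ko against APP/E3/Trem2ko (adjusted p = 0.155), 0.27 ± 0.23 for E4 against E3 (adjusted p = 0.528) and 0.33 ± 0.21 for E4/Trem2ko against E3/Trem2ko (adjusted p = 0.352). Whether it depended on Trem2 in APP mice or on the transgenes was tested and not called, with interaction estimates of -0.36 ± 0.22 (adjusted p = 0.432) and 0.46 ± 0.27 (adjusted p = 0.838).

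Cd9 went the other way. APP/E4 mice had 13.4 CPM at the lowest, 21.6 at the median and 26.1 at the highest, against 23.1, 26.9 and 37.9 CPM in APP/E3 mice, so the ranges met only between 23.1 and 26.1 CPM. The log2 fold change was -0.41 ± 0.12 (adjusted p = 0.00383). It was called in 15 of 17 alternatives, among them the one without keratin libraries (-0.48, adjusted p = 0.0313). It was not called with the keratin covariate (-0.25, adjusted p = 0.173) or after a correction for transcript length and GC content (-0.22, adjusted p = 0.0925). Of the related tetraspanins, Cd81 (-0.22), Cd151 (-0.18), Cd37 (-0.17), Tspan3 (-0.19) and Tspan7 (-0.12) were also called lower over the 4 backgrounds. Cd82, Cd53, Tspan2 and Tspan4 were not called. Of 30 genes of the same families as the 9, 10 were lower and 1 was higher in APOE4 mice, beside 27.8% of all genes called lower and 12.6% higher, so the count is no result about these families. Without the keratin libraries 1 of the 30 was called lower and none higher.

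The other 4 calls in APP/E4 against APP/E3 were smaller and less stable. Slco2b1 averaged 26.3 ± 4.32 CPM in APP/E4 and 22.5 ± 2.89 CPM in APP/E3 mice (0.21 ± 0.07, adjusted p = 0.0125). Plek averaged 20.5 ± 4.66 CPM in APP/E4 and 17.1 ± 2.13 CPM in APP/E3 mice (0.23 ± 0.09, adjusted p = 0.0371). Anxa3 averaged 6.78 ± 1.93 CPM in APP/E4 and 8.52 ± 1.79 CPM in APP/E3 mice (-0.33 ± 0.12, adjusted p = 0.0303). Cotl1 averaged 54.5 ± 8.57 CPM in APP/E4 and 64.3 ± 8.25 CPM in APP/E3 mice (-0.24 ± 0.08, adjusted p = 0.0125). None of these 4 was called without the keratin libraries, which leaves 4 APP/E4 mice. The log2 fold changes were then 0.24 for Slco2b1 (adjusted p = 0.115), -0.31 for Anxa3 (adjusted p = 0.251) and -0.24 for Cotl1 (adjusted p = 0.159), close to those over all mice, and 0.08 for Plek (adjusted p = 0.691). Cotl1 was at -0.01 after the length and GC correction (adjusted p = 0.963). Over all mice, edgeR with TMM and DESeq2 called neither Anxa3 (adjusted p of 0.076 and 0.0754) nor Cotl1 (adjusted p of 0.0537 and 0.0562). Anxa3 was also not called by limma with TMM scaling (adjusted p = 0.0534). The Plek call was lost without any 1 of APP/E3 replicates 7, 9, 11, 12 and 14 or APP/E4 replicates 1, 4, 6, 12 and 13 (log2 fold change 0.18 to 0.23, highest adjusted p = 0.101). The Anxa3 call was lost without APP/E3 replicate 2 or 13 or APP/E4 replicate 9, 10 or 14 (-0.31 to -0.28, highest adjusted p = 0.0683). Over all genes, 33.6% were called in this comparison, 10.9% higher and 22.7% lower.

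**Figure D3:**
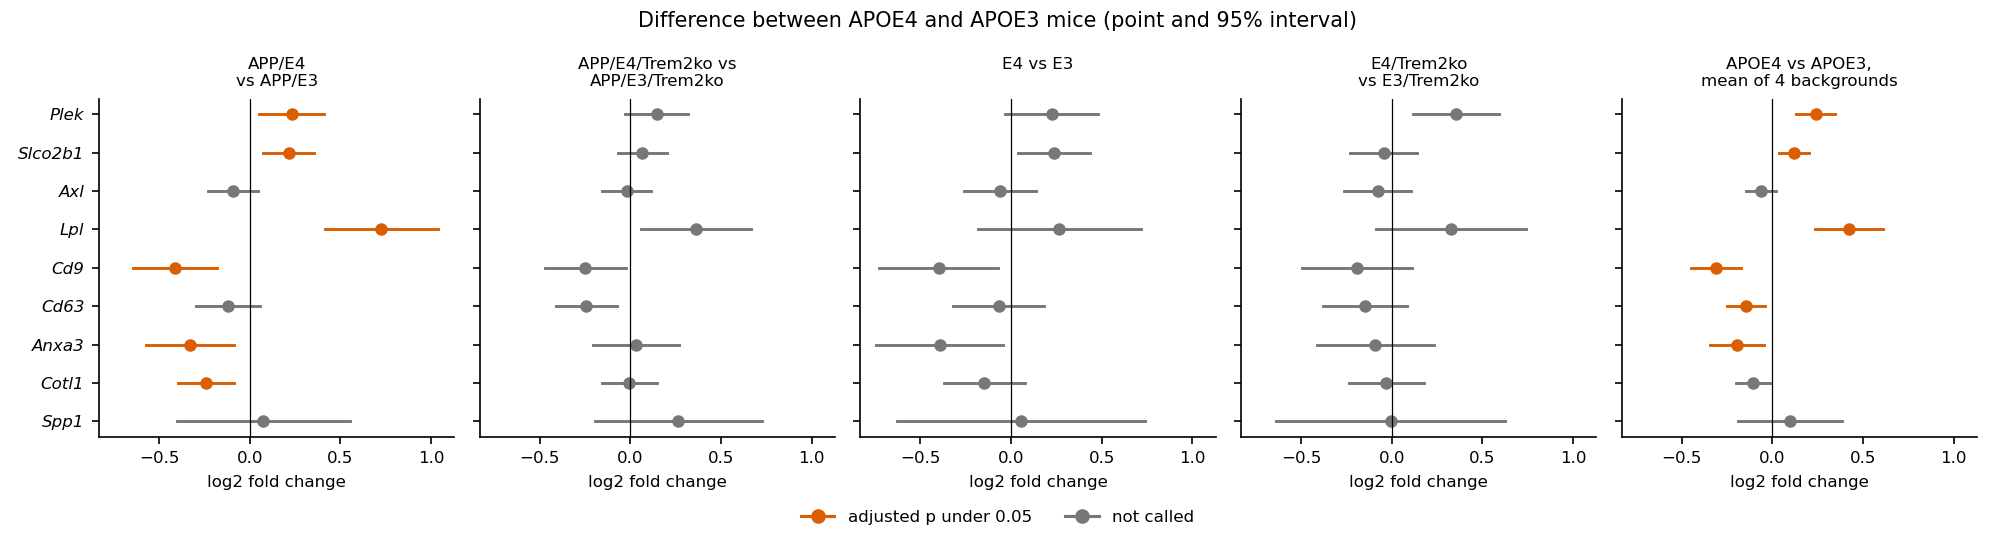
Log2 fold change of the 9 genes in APOE4 over APOE3 mice (points) with 95% intervals (lines), for the 4 backgrounds and their mean, orange where the adjusted p was under 0.05. Calls in a single background appear only in APP/E4 against APP/E3, with Lpl at 0.73 and Cd9 at -0.41.

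In the other 3 backgrounds no gene of the 9 was called by limma between the isoforms. At an unadjusted p under 0.05 there were 3 in APP/E4/Trem2ko against APP/E3/Trem2ko (beside 4.46% of all genes called, 1.44% higher and 3.02% lower). There were 3 in E4 against E3 (beside 7.72%, with 1.72% higher and 6.01% lower) and 1 in E4/Trem2ko against E3/Trem2ko (beside 6.21%, with 1.53% higher and 4.68% lower). In the last pair the gene was Plek, at 14.7 ± 1.83 CPM in E4/Trem2ko and 11.4 ± 1.75 CPM in E3/Trem2ko mice (0.36 ± 0.12, adjusted p = 0.0539). The count tests edgeR and DESeq2 each called it there and called none of the 9 in the other 2 pairs. Without the keratin libraries, which leaves 1 E4/Trem2ko mouse, its difference was 0.03, on the assumption that the lone mouse varies like the other groups. Over the 4 backgrounds the pooled log2 fold changes were 0.42 ± 0.09 for Lpl, 0.24 ± 0.05 for Plek and 0.12 ± 0.04 for Slco2b1. They were -0.31 ± 0.07 for Cd9, -0.20 ± 0.07 for Anxa3 and -0.15 ± 0.05 for Cd63. The calls of the last 2 were lost without 1 mouse each, E3/Trem2ko replicate 4 for Anxa3 (-0.16, adjusted p = 0.0609) and E4 replicate 3 for Cd63 (-0.12, adjusted p = 0.0531). Each was called in 9 of 16 alternatives. Over all mice neither was called with TMM scaling (adjusted p of 0.0597 for Anxa3 and 0.0728 for Cd63), edgeR or DESeq2. After the length and GC correction Anxa3 was at -0.09 (adjusted p = 0.34) and Cd63 at -0.07 (adjusted p = 0.259).

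**Figure D4:**
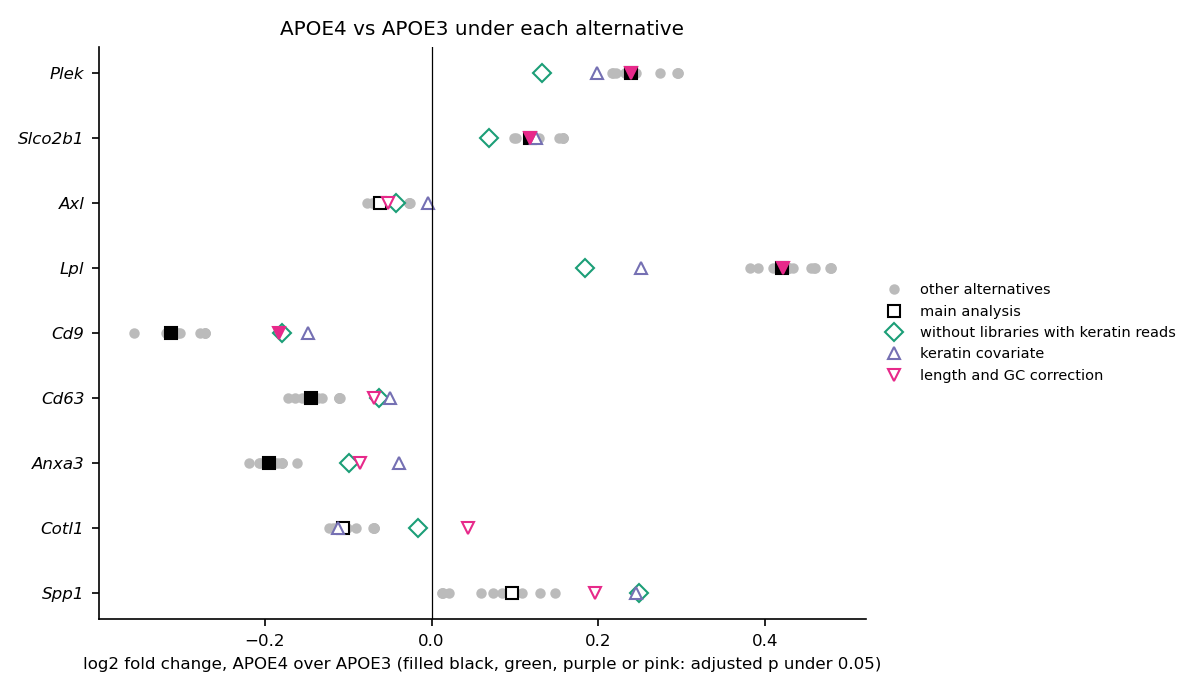
Pooled log2 fold change of each gene in APOE4 over APOE3 mice in the main analysis (black squares) and under each alternative. Of the alternatives, 3 chosen ones are in colour (green, purple, and pink for the length and GC correction). Coloured and black symbols are filled where the adjusted p was under 0.05, and no green diamond (without the keratin libraries) or purple triangle (keratin covariate) is filled.

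Inside the APOE4 line the level could be compared between libraries with and without keratin reads, as a description. Lpl had a median of 22.4 CPM in the 31 libraries with keratin reads and 22.5 CPM in the 13 without, against 17.4 CPM in the 44 APOE3 libraries. Plek had medians of 17 and 17.2 CPM, against 15 CPM in APOE3 libraries. Cd9 had medians of 22.3 and 22.7 CPM, against 26.5 CPM in APOE3 libraries. Slco2b1 had medians of 23.1 and 24.3 CPM, against 21.5 CPM in APOE3 libraries, and Anxa3 of 6.05 and 6.39 CPM, against 7.26 CPM. For Cd63 the medians were 21.3 and 23.1 CPM, so APOE4 libraries without keratin reads lay near the 23.3 CPM of APOE3 libraries. The means of Lpl, Plek, Cd9 and Anxa3 lay further apart than their medians. Lpl averaged 24.7 CPM in APOE4 libraries with keratin reads and 21 CPM in those without, against 16.6 CPM in APOE3 libraries. Plek averaged 17.9 and 16.8 CPM, against 14.9 CPM in APOE3 libraries, and Cd9 averaged 21.2 and 25.2 CPM, against 27.4 CPM. Anxa3 averaged 6.07 and 7.15 CPM, against 7.39 CPM in APOE3 libraries. The 2 kinds of APOE4 library also differ in their mix of genotypes. In the pooled comparison without the keratin libraries, Lpl was at 0.18 (adjusted p = 0.533), Plek at 0.13 (adjusted p = 0.398) and Cd9 at -0.18 (adjusted p = 0.347). Axl and Slco2b1 lie on chromosome 7, as does Apoe, at 6.06 and 79.96 megabases from it (GRCm38). Axl, the nearer, was at -0.06 ± 0.04 between the isoforms (adjusted p = 0.241).

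The third question was whether plaques raise these genes in bulk cortex. None of the 9 was called in any of the 4 comparisons of APP mice with mice lacking the transgenes, nor in their mean, by limma. Over all genes, 0.0781% were called in APP/E4/Trem2ko against E4/Trem2ko (0.0497% higher, 0.0284% lower) and 0.0142% in APP/E4 against E4 (0.0142% higher, 0% lower). In APP/E3/Trem2ko against E3/Trem2ko 0.149% were called (0.071% higher, 0.0781% lower), and in APP/E3 against E3 0.0213% (0.0142% higher, 0.0071% lower). In the mean 1.68% were called, 0.532% higher and 1.14% lower, or 75 and 161 genes, against 138 and 149 with TMM scaling. At an unadjusted p under 0.05 there were 1, 0, 1, 0 and 2 of the 9, in the same order, and edgeR and DESeq2 called none in the 4 single comparisons.

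Plek came nearest in the mean, with 11 CPM at the lowest, 16.5 at the median and 32.7 at the highest in the 58 APP mice, against 8.18, 14.8 and 22.6 CPM in the 30 mice without the transgenes. Its log2 fold change was 0.18 ± 0.05 (adjusted p = 0.0603), and it was called in 8 of 16 alternatives, edgeR and DESeq2 included. Lpl was at 0.22 ± 0.09 (adjusted p = 0.191). Among genes outside the set, Ccl6 (0.41), Ctsd, a lysosomal protease (0.16), Fcrls, a microglial Fc receptor-like gene (0.22), and Aif1, which encodes IBA1 (0.26), were called higher in the mean. No other tested gene of the homeostatic, early-stage or later-stage lists above was called in the mean, in either direction. Spp1 averaged 8.87 ± 3.15 CPM in APP/E4/Trem2ko and 6.86 ± 1.82 CPM in E4/Trem2ko mice, and 6.91 ± 4.13 CPM in APP/E4 and 7.80 ± 2.04 CPM in E4 mice, and neither difference was called. For Axl the pooled interval was -0.06 to 0.11 and for Cd63 it was -0.11 to 0.10, so a rise over 1.08-fold lies outside both.

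No difference between effects was called for any of the 9 genes. For the APOE by Trem2 term, 2 genes in APP mice (Anxa3 and Cotl1) and 1 in mice without the transgenes (Slco2b1) had an unadjusted p under 0.05, with smallest adjusted p of 0.281 and 0.715. For the APP by Trem2 term over both isoforms, Anxa3 was at 0.35 ± 0.15 (adjusted p = 0.254) and Cotl1 at 0.21 ± 0.09 (adjusted p = 0.266). None had an unadjusted p under 0.05 for the APP by APOE term. Over all genes the terms called between 0% and 0.369%, and edgeR and DESeq2 called none of the 9. Females and males did not differ in a called way either, with Lpl at 0.21 ± 0.09 (adjusted p = 0.864) as the only 1 of the 9 at an unadjusted p under 0.05, and 0.135% of all genes were called.

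Cortex RNA comes from all cell types, so the genes were also set against marker lists of 5 of them over the 88 mice, after the means of genotype and sex had been removed. The points share library scaling and tissue composition, and 45 such relations were computed. Plek and Slco2b1 followed the homeostatic microglial list, with Pearson's r of 0.619 (Spearman's rho 0.573) for Plek and of 0.619 (rho 0.586) for Slco2b1. The permutation p of r and of rho was 1e-05 in each case, the smallest that 100000 permutations can give (adjusted 2e-05 for r and 3e-05 for rho, and so for each relation with this p). Without the 2 mice farthest from the median of the list, r was 0.561 for Plek and 0.580 for Slco2b1. Slco2b1 lay as close to the endothelial list (r = 0.618, rho 0.616, both permutation p = 1e-05; 0.588 without the 2 farthest) and near the astrocyte list (r = 0.598, rho 0.575, both permutation p = 1e-05; 0.635 without the 2 farthest). In the 31 keratin libraries r with the endothelial list was 0.766 for Slco2b1 and 0.733 for Plek, above their values for the microglial list, and in the 57 others it was 0.537 and 0.327. Among the genes most like Plek were Cx3cr1 (r = 0.708) and Lair1 (0.700), and those most like Slco2b1 were Pbxip1 (0.772), Csf1r (0.743) and Tgfbr1 (0.735).

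Axl followed the astrocyte list at r = 0.868 (rho 0.859, both permutation p = 1e-05), and at 0.862 without the 2 farthest mice, and the genes most like it were Glud1, Acsbg1 and Plpp3. Spp1 followed the list for leptomeningeal and vascular fibroblasts at r = 0.791 (rho 0.764, both permutation p = 1e-05), at 0.759 without the 2 farthest mice, with Slc13a3, Aldh1a2 and Ptgds as its nearest genes. Cd9 was nearest to the oligodendrocyte list (r = 0.542, rho 0.562, both permutation p = 1e-05; 0.528 without the 2 farthest), with Adi1, Car2 and Laptm4a. Cd63 was nearest to the astrocyte list (r = 0.596, rho 0.613, both permutation p = 1e-05; 0.564 without the 2 farthest), with Phgdh, Eci1 and Mdk. In the 57 libraries without keratin reads and the 31 with them, r was 0.886 and 0.829 for Axl, 0.850 and 0.553 for Spp1, 0.515 and 0.622 for Cd9, 0.608 and 0.564 for Cd63, 0.612 and 0.646 for Plek and 0.606 and 0.643 for Slco2b1.

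Anxa3 was spread over several lists, from r = 0.569 for endothelium to 0.496 for homeostatic microglia, and its nearest genes were Msn, Vim and Anxa2. Lpl and Cotl1 followed none closely. For Lpl the largest was r = -0.324 with oligodendrocytes (permutation p = 0.00207, adjusted 0.00405; rho -0.281, permutation p = 0.00845, adjusted 0.0152; -0.286 without the 2 farthest), and for Cotl1 r = 0.294 with homeostatic microglia (permutation p = 0.00548, adjusted 0.00948; rho 0.364, permutation p = 0.00052, adjusted 0.00106; 0.363 without the 2 farthest). Their nearest genes were Nanos1, Rasgef1a and Sec14l3 for Lpl and Cnih2, Arhgdia and Itm2c for Cotl1. Among the 36 pairs of the 9 genes themselves, r was highest for Axl with Slco2b1 (0.646) and Cd9 with Cd63 (0.526), and Plek with Slco2b1, both lower in Trem2ko mice, stood at 0.462.

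**Figure D5:**
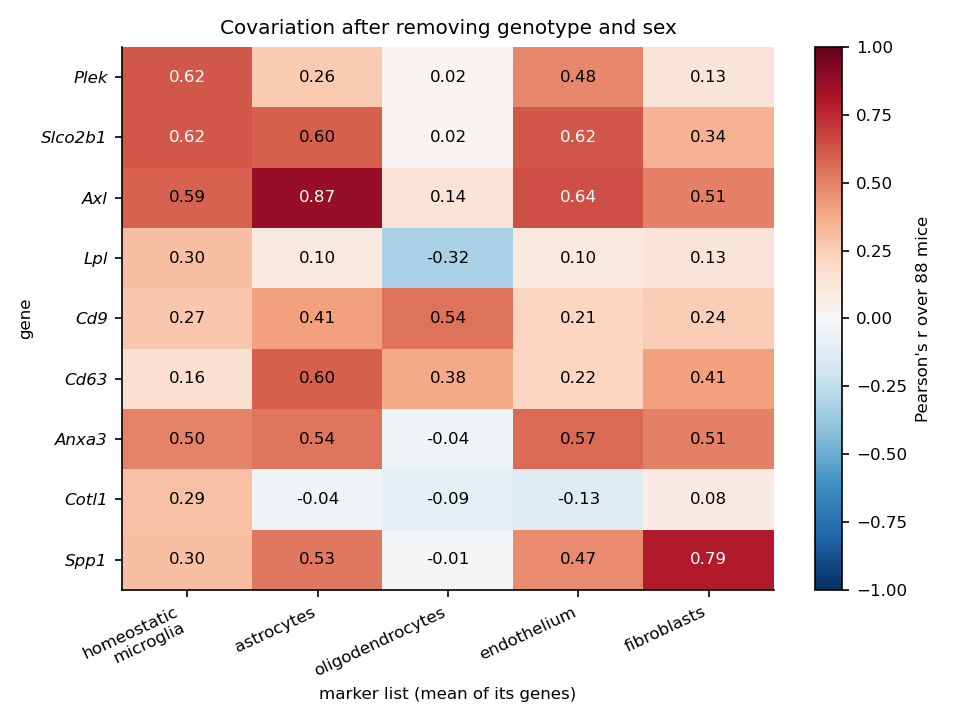
Pearson's r over the 88 mice between each of the 9 genes (rows) and the mean of each marker list (columns), after removing genotype and sex. The highest value for Plek is with homeostatic microglia (0.62), for Axl with astrocytes (0.87), for Spp1 with fibroblasts (0.79) and for Cd9 with oligodendrocytes (0.54).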

How the data were processed

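The authors extracted RNA from frontal cortex, sequenced it on an Illumina instrument, aligned reads to mm10 and counted them with Subread/featureCounts, and deposited 1 table of CPM for 88 mice. They state a sequencing batch, which is not given in the sources used here. After removal of 46 repeated rows, 14451 genes remained. All CPM values were whole multiples of 1 read (tolerance 0.01), which gave reads for edgeR and DESeq2 as alternatives.

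Genotype (8 groups) and sex were fitted over all 88 mice by limma 3.58.1 under R 4.3.3, on CPM plus 0.5 in log2 units. The fit covered the 14086 genes averaging 1 CPM or more, with p-values adjusted over these genes by the Benjamini-Hochberg method and called under 0.05, in 20 comparisons. Pooled comparisons weight the backgrounds equally. A fold change on this scale understates that of low genes. The 95% intervals use 79 degrees of freedom. The procedure was tested on simulated data. Gene names and coordinates are from GENCODE M21 (GRCm38). The lowest chi-square per degree of freedom among 492 pairs of the same group was 14.5, so no library appeared to be deposited more than once. The 9 genes and all gene lists were chosen with earlier results of these data known. Named genes were the 9, genes of the fixed lists called in a pooled comparison, and the 3 nearest genes of each, apart from 1 that is not reported here. Alternatives were edgeR (4.0.16), DESeq2 (1.42.0), 2 surrogate variables (sva 3.50.0), other scalings, pseudocounts, filters, covariates and library sets, and leaving out each mouse. Correlations used Python 3.11.15 with scipy 1.17.1.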

Additional observations from a re-analysis of the deposited data

Results flagged for a closer look

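In groups of 6 or 8 mice, 4 values stood far from the rest of their group by Dixon's test, among 36 sets of values examined, where chance flags about 1 in 20. E3/Trem2ko replicate 4, a female, was high in Cd9 (40.7 CPM, the next highest mouse having 26.6 CPM) and in Anxa3 (10.7 CPM, next 6.58 CPM). Without it, Anxa3 in E3/Trem2ko against E3 was at -0.84 on the log2 scale in place of -0.70, and the pooled APOE difference of Anxa3 was at -0.16 (adjusted p = 0.0609, limma). E3 replicate 2, a female, had Plek at 20.9 CPM (next 16.3 CPM), and without it E3/Trem2ko against E3 was at -0.38 (adjusted p = 0.0687) while the pooled Trem2 call was kept (-0.32, adjusted p = 5.78e-05). E4 replicate 4, a female whose library held keratin reads at 17.3 CPM, had Anxa3 at 9.24 CPM (next 7.11 CPM), and no call of Anxa3 changed without it.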

How the results depend on the processing

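Of 19 called differences of single genes, 2 were called under every alternative (Plek in the pooled Trem2 comparison and Lpl in APP/E4 against APP/E3), and none turned its sign. Cotl1 in the pooled APOE comparison, not called in the main analysis, turned to 0.043 after the length and GC correction. The count of called genes was within 1.5 times the main count under every alternative in 10 of 20 comparisons.

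The counts moved as follows, out of 9 genes. In APP/E4/Trem2ko against APP/E4 (2 called) it was 0 with only the compared genotypes, 0 without libraries high in Ttr and 1 without keratin libraries, where the gene was Cd9 (0.59, adjusted p = 0.0245). In E3/Trem2ko against E3 (2) it was 1 with only the compared genotypes, 1 with the striatal covariate and 0 with the oligodendrocyte covariate. In APP/E4 against APP/E3 (6) it was 2 after length and GC correction, 2 without keratin libraries, 3 with the keratin covariate, and 4 with edgeR or DESeq2. The pooled Trem2 count (3) was 1 and the pooled APOE count (6) was 0 without keratin libraries, and the pooled APOE count was also 0 with the keratin covariate (limma, 0 and 2 at an unadjusted p under 0.05). Counts of 0 became 1 in APP/E3/Trem2ko against APP/E3 and in APP/E4/Trem2ko against APP/E3/Trem2ko with 2 surrogate variables, and in E4 against E3 with the oligodendrocyte covariate. In E4/Trem2ko against E3/Trem2ko (Plek) the count was 1 with TMM scaling, only the compared genotypes, surrogate variables, edgeR with either scaling, DESeq2, length and GC correction and both tissue covariates. In the pooled APP comparison (Plek) it was 1 with TMM scaling, surrogate variables, edgeR with either scaling, DESeq2, length and GC correction, the striatal covariate and without libraries high in Alb. Fewer mice enter the analyses without libraries and with only the compared genotypes; for the others the cause was not tested.

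Leaving out each mouse in turn gave 1 to 3 called genes in APP/E4/Trem2ko against APP/E4, 0 to 2 in E3/Trem2ko against E3, 5 to 6 in APP/E4 against APP/E3, 3 to 3 in the pooled Trem2 and 5 to 7 in the pooled APOE comparison. It gave 0 to 1 in APP/E4/Trem2ko against APP/E3/Trem2ko, in E4/Trem2ko against E3/Trem2ko and in the pooled APP comparison, and 0 to 0 in the remaining 12. No paired analysis was possible because the replicate numbers follow accession order and pair no mice.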
